A study of Mus musculus with 3 samples.

Results

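The receptors for interferons and the transcription factors they act through were followed in 3T3-L1, a mouse preadipocyte cell line whose cells fill with fat after adipogenic induction. The genes are the receptor chains Ifnar1, Ifnar2, Ifngr1 and Ifngr2, the signal transducer Stat2, and the interferon regulatory factors Irf1, Irf3, Irf7 and Irf9. They are 9 of the 20144 genes that could be named on the array, and they were taken by name with all of their probes, found by matching RefSeq accessions to mouse symbols, 12 of 39429 non-control probes. Total RNA came from cells of the line at 2, 8 and 20 days after induction, and the study asked how gene expression shifts as adipocytes enlarge. Each day is represented by 1 Agilent 1-colour array, which leaves no test between days and no estimate of the spread between cultures. The labels used here give no genotype, inducing agent or other treatment.

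Type I interferons bind a receptor made of the Ifnar1 and Ifnar2 chains, and interferon gamma binds one made of Ifngr1 and Ifngr2. Kinases attached to these chains, Tyk2, Jak1 and Jak2, phosphorylate STAT proteins. STAT2 and IRF9 belong to the complex ISGF3, which binds interferon-stimulated response elements, whereas STAT dimers bind shorter STAT sites, and interferon gamma switches on Irf1 by that route. IRF3 and IRF7 act one step earlier, in cells that have sensed foreign nucleic acid, where they turn on the interferon genes themselves, and Irf7 is itself an interferon-induced gene. Preadipocytes and adipocytes carry these receptors and respond to both kinds of interferon.

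The promoters of the genes were searched for the letters of both elements, because the genes described here include the factors that bind them. The 250 bases before each gene start in the RefSeq annotation of GRCm38.p6 were read on both strands, for all 9 genes (11 promoters) and for all 32851 mouse promoters of the same length. The response element was written as GAAA, any 2 bases, GAAA, and was found in 1 of the 11 promoters and in 2.98% of all promoters. The STAT site was written as TTCNNNGAA and was found in 2 of the 11 promoters and in 7.02% of all promoters. The stretches with a match are given 5′ to 3′ along the gene, with the matched letters in capitals, and they are from chr10:128270261-128270300 (Stat2, + strand, response element on the opposite strand), chr11:53769909-53769947 (Irf1, + strand) and chr16:91372554-91372592 (Ifnar2, + strand).
Stat2: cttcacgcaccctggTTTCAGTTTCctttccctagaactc
Irf1: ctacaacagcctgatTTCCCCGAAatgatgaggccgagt
Ifnar2: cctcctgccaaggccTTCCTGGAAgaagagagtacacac
No match in these windows was found for Ifnar1, Ifngr1, Ifngr2, Irf3, Irf7 or Irf9, which says only that these letters are absent there.

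Of 43020 non-control spots on each array, 55.3% to 56.9% were well above background, and 12491 to 12837 named genes were. Of the 12 probes, 11 were well above background on all 3 arrays, and each of the 9 genes had at least 1 such probe, so every gene could be compared on every pair of days. Each probe was printed once per array, and no spot of these probes was marked as an outlier. A level is given as log2 of the processed intensity minus the 75th percentile of that array's probes, controls left out, so a level of 0 lies at that percentile. Levels of different probes are not comparable as amounts of RNA, so days are compared within a probe. Intensities summed over a list are given only to describe brightness. The error beside a difference is a technical SD, taken from probes printed several times on the same array at a similar brightness. It is a spread between spots within an array, so it holds nothing of the variation between labellings, arrays or cultures. Of 8 adipocyte markers, all were well above background on each day, and 4 of them were at least 2-fold higher on day 8 than on day 2, while the other 4 were under 2-fold. Between days 8 and 20 the median difference of the 8 adipocyte markers was -0.49, against -0.05 for all genes, and none passed 2-fold. Of 6 preadipocyte or fibroblast markers, 5 were measured on both days 2 and 8 (median 0.09), where only Pdgfrb (2.53) passed 2-fold. From day 8 to day 20 the median of all 6 was 0.74. Thy1 (1.81) and Dlk1 (1.47) passed 2-fold upward and Cd34 (-1.17) downward. The share of each cell type was not tested. In bulk RNA a change in the share of cells that express a gene and a change in its RNA per cell cannot be told apart.

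On day 8, 5 of the 9 genes were at least 2-fold higher than on day 2, and none was at least 2-fold lower. Of the 12045 genes that could be compared, 13.8% passed 2-fold on the higher side and 12.9% on the lower side. The median difference of the 9 genes was 1.00, against -0.06 for all genes. The genes at least 2-fold higher were Irf7, Irf9, Stat2, Ifnar2 and Ifngr2. The factors Irf7, Irf9 and Stat2 had the largest differences, the receptor chains and Irf1 smaller ones, and Irf3 the smallest.

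**Figure D1:**
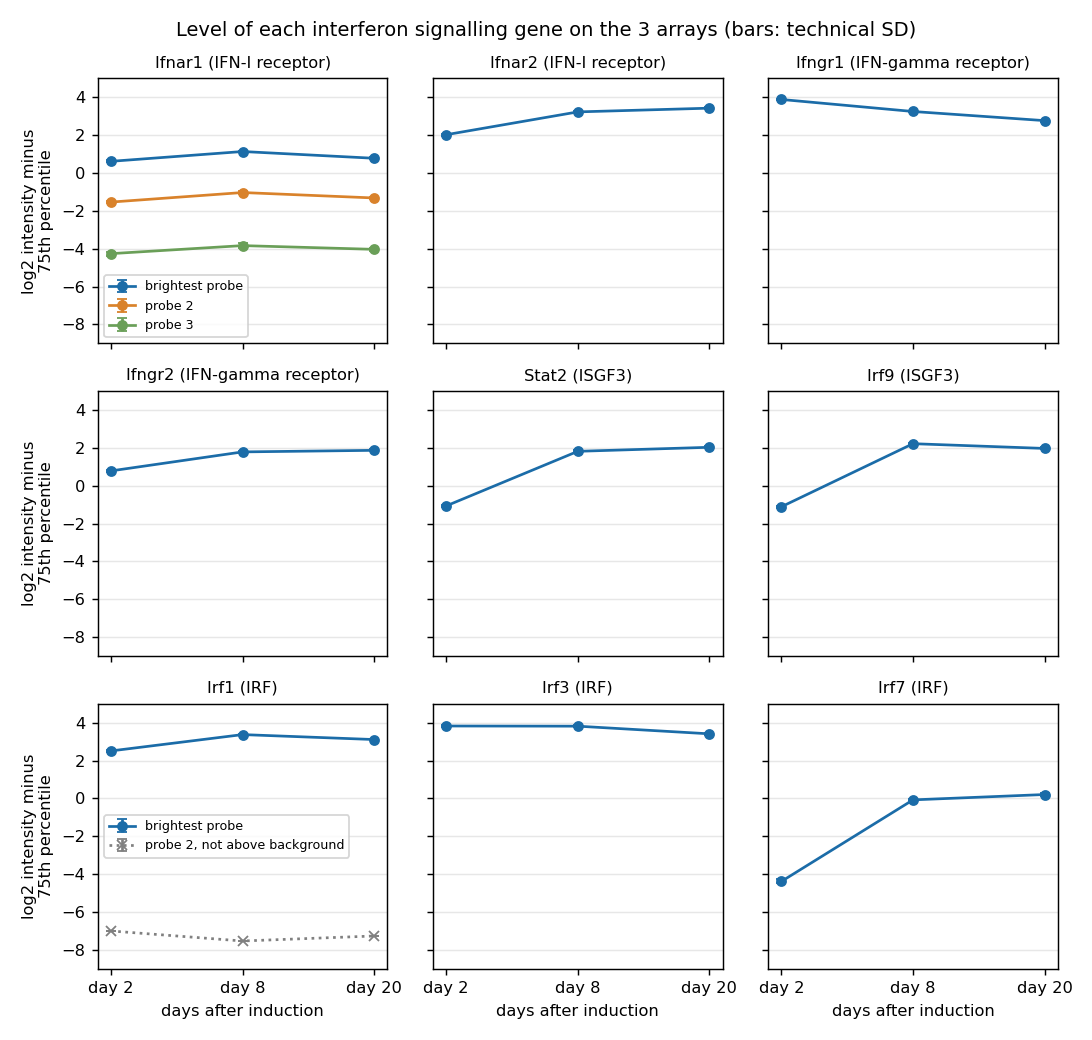
Level of each gene (log2 processed intensity minus the array's 75th percentile, vertical axis) on days 2, 8 and 20 (horizontal axis), 1 array per day, with a line per probe and bars for the technical SD between spots, which are often smaller than the symbol. Irf7, Irf9 and Stat2 step up between days 2 and 8, the 3 Ifnar1 probes run parallel, and the grey Irf1 probe was not above background on any day.

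Among the receptors for type I interferon, Ifnar2, the chain that carries the signalling tail for STAT2, had levels of 2.03, 3.23 and 3.43 on days 2, 8 and 20. The lowest level was on day 2, and days 8 and 20 lay close together. It was 2.30-fold higher on day 8 than on day 2 (log2 difference 1.20, technical SD 0.0621), and 2.64-fold higher on day 20 than on day 2 (1.40, SD 0.0669). Its promoter is one of those shown with the letters of a STAT site.

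Ifnar1, the partner chain that holds Tyk2, was read by 3 probes of the same transcript. The brightest had levels of 0.62, 1.14 and 0.78 on days 2, 8 and 20, the second -1.53, -1.03 and -1.32, and the dimmest -4.26, -3.83 and -4.03. All 3 were highest on day 8 and lowest on day 2. Their differences of day 8 against day 2 were 0.52 (SD 0.067), 0.50 (SD 0.0734) and 0.42 (SD 0.158). The 3 differences lay within the technical SD of the dimmest probe of each other, and none reached 2-fold. The difference of Ifnar2 exceeded that of Ifnar1 by 0.69 (SD 0.0914) on day 8 against day 2 and by 1.24 (SD 0.0948) on day 20 against day 2, a contrast between chains that no constant scaling of an array can alter.

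The chains of the interferon gamma receptor had differences of opposite sign. Ifngr1, the chain that binds the ligand, had levels of 3.89, 3.25 and 2.77 on days 2, 8 and 20, highest on day 2 and lowest on day 20. It was at -0.63 (SD 0.0571) on day 8 against day 2 and at -1.12 (SD 0.0622) on day 20 against day 2 (2.17-fold lower). With quantile normalization, cyclic loess, scaling on the control RNAs spiked into each sample, or another background correction (normexp), the difference of day 20 against day 2 stayed negative but under 2-fold, between -0.96 and -0.43. Ifngr2, the chain that brings in Jak2, had levels of 0.79, 1.79 and 1.87, lowest on day 2 and nearly equal on days 8 and 20. Its difference of day 8 against day 2 was 1.00 (SD 0.0677), which lies at the 2-fold threshold and was 0.90 when arrays were scaled on their medians and 0.99 with normexp. Ifngr2 exceeded Ifngr1 in its difference by 1.64 (SD 0.0886) on day 8 against day 2 and by 2.20 (SD 0.0905) on day 20 against day 2. Of the 10 other ways of processing, quantile normalization (2.02), cyclic loess (2.09) and normexp (2.02) lowered the contrast of day 20 against day 2. The rest left it at 2.20, since they shift an array by a constant or leave these probes as they were.

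Ifnar2, Ifnar1 and Ifngr2 are neighbours on mouse chromosome 16, in the order Ifnar2, Il10rb, Ifnar1, Ifngr2 with no other protein-coding gene of the annotation between them, while Ifngr1 lies on chromosome 10. Il10rb, the chain shared by the receptors for interleukin-10 and for type III interferons, had levels of 0.07, 1.67 and 1.66 and a difference of 1.61 on day 8 against day 2. The 4 neighbouring genes thus differed by 1.20, 1.61, 0.52 and 1.00 in their chromosomal order, all higher on day 8 than on day 2 and 3 of them past 2-fold. Of all genes, 13.8% passed 2-fold on that side. On day 20 against day 8 the neighbours differed by 0.20, -0.01, -0.36 and 0.08 in the same order. Other groups of neighbouring genes were not examined.

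Stat2, the STAT protein specific to ISGF3, had levels of -1.06, 1.82 and 2.03 on days 2, 8 and 20. Day 2 stood well below both later days. The difference of day 8 against day 2 was 2.88 (7.38-fold, SD 0.0705), and 312 of the 12045 genes had a higher one. On day 20 against day 2 it was 3.10 (8.55-fold, SD 0.0716). The response element letters shown for its promoter lie at positions -222 to -213 from the gene start.

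Irf9, the DNA-binding partner of STAT2 in ISGF3, had levels of -1.11, 2.22 and 1.97. It too was low on day 2 and high on both later days, with day 8 the highest. Its difference of day 8 against day 2 was 3.33 (10.1-fold, SD 0.0725), exceeded by 231 genes, and that of day 20 against day 2 was 3.08 (8.46-fold, SD 0.0719). Stat2 and Irf9 differed from each other by -0.02 (Irf9 minus Stat2, SD 0.102) on day 20 against day 2, within the technical SD, and by 0.45 (SD 0.101) on day 8 against day 2.

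Irf7, the factor that amplifies type I interferon production, showed the largest difference of the 9. Its processed intensity was 31.8 on day 2, 604 on day 8 and 1070.1 on day 20, with errors given by the scanner software of 4.34, 60.4 and 107. On the log2 scale the levels were -4.38, -0.08 and 0.21, so the gene was dim but above background on day 2 and near the 75th percentile later. The difference of day 8 against day 2 was 4.31 (19.8-fold, SD 0.122), exceeded by 107 of 12045 genes, and that of day 20 against day 2 was 4.59 (24.1-fold, SD 0.122), exceeded by 119 of 11889. The size depends on the background correction and on the constant added with it. With normexp on the median spot signals and an added offset of 50, the differences were 2.73 and 2.97, still past 4-fold. The offset is larger than the day 2 intensity of 31.8, and its share in the smaller differences was not tested.

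**Figure D2:**
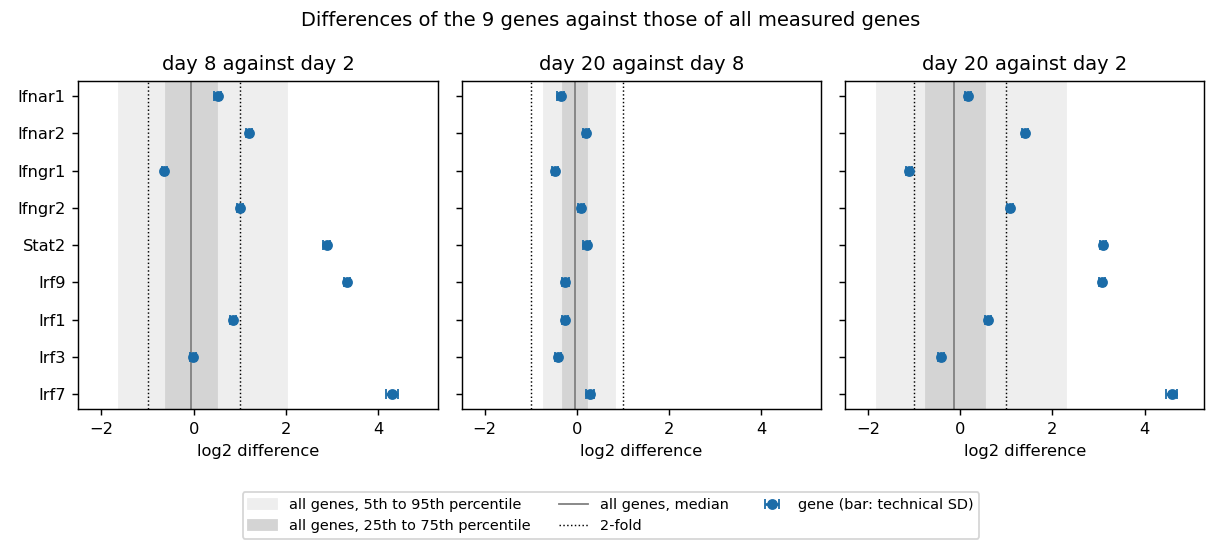
Log2 differences between days (horizontal axis) for each of the 9 genes (rows), with bars for the technical SD, in day 8 against day 2, day 20 against day 8 and day 20 against day 2; the shading gives the range of all measured genes and the dotted lines 2-fold. Stat2, Irf9 and Irf7 lie beyond the 95th percentile of all genes against day 2, and all 9 genes lie inside the 5th to 95th percentile range in day 20 against day 8.

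Irf3, which is made constitutively and is switched on by phosphorylation, had levels of 3.83, 3.82 and 3.41. Days 2 and 8 were indistinguishable, with a difference of -0.01 (SD 0.0629) that turned positive with quantile normalization (0.18), cyclic loess (0.16) and spike-in scaling (0.01). Day 20 was at -0.41 (SD 0.0643) against day 2, a difference that was -0.07 with quantile normalization and -0.02 with cyclic loess and turned positive with spike-in scaling (0.28). The difference of Irf7 exceeded that of Irf3, its partner in turning on interferon genes, by 4.32 (SD 0.137) on day 8 against day 2, and by a factor of 32.0 on day 20 against day 2. With normexp and its added offset these contrasts were smaller, at 2.74 and 3.34 on the log2 scale.

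Irf1, induced by interferon gamma and an activator of antigen presentation genes, had levels of 2.51, 3.37 and 3.11, lowest on day 2. Its difference of day 8 against day 2 was 0.86 (1.82-fold, SD 0.0656), the nearest below the 2-fold threshold as Ifngr2 was the nearest above it, and it passed 2-fold with quantile normalization (1.01) and cyclic loess (1.03). A second Irf1 probe, for another transcript of the gene, read 5.17, 3.44 and 6.02 in processed intensity and was not well above background on any day, so it gave no difference. The STAT site letters in the Irf1 promoter lie at positions -90 to -82 from the gene start.

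Between day 8 and day 20 none of the 9 genes differed by 2-fold in either direction, where 3.58% of 12321 genes passed on the higher side and 1.74% on the lower side. The differences ran between -0.48 (Ifngr1, SD 0.0639) and 0.28 (Irf7, SD 0.0776), with a median of -0.25 against -0.05 for all genes. Irf7, Stat2 (0.21, SD 0.0716), Ifnar2 (0.20, SD 0.0639) and Ifngr2 (0.08, SD 0.0685) were positive. Irf9 (-0.25, SD 0.0721), Irf1 (-0.26, SD 0.0666), Ifnar1 (-0.36, SD 0.0699), Irf3 (-0.40, SD 0.0673) and Ifngr1 were negative, but each of these 5 was positive with spike-in scaling, between 0.18 and 0.41, a scaling that put the median of all genes at 0.62. Except for Ifngr2, each difference exceeded 2 technical SDs, a yardstick that leaves out the variation between arrays and between cultures. The error given by the scanner software is wider, for example 379 on an intensity of 3792.6 for Stat2 on day 20. The differences were not set against that error.

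Against day 2, day 20 held the same genes past 2-fold on the higher side as day 8 did, Ifnar2, Ifngr2, Stat2, Irf7 and Irf9, 5 of 9 where 15.5% of 11889 genes passed. On the lower side 1 of 9 passed, Ifngr1, where 17.0% of genes did. The median of the 9 genes was 1.09, against -0.14 for all genes. Both comparisons use the day 2 array, so they are not independent of each other.

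**Figure D3:**
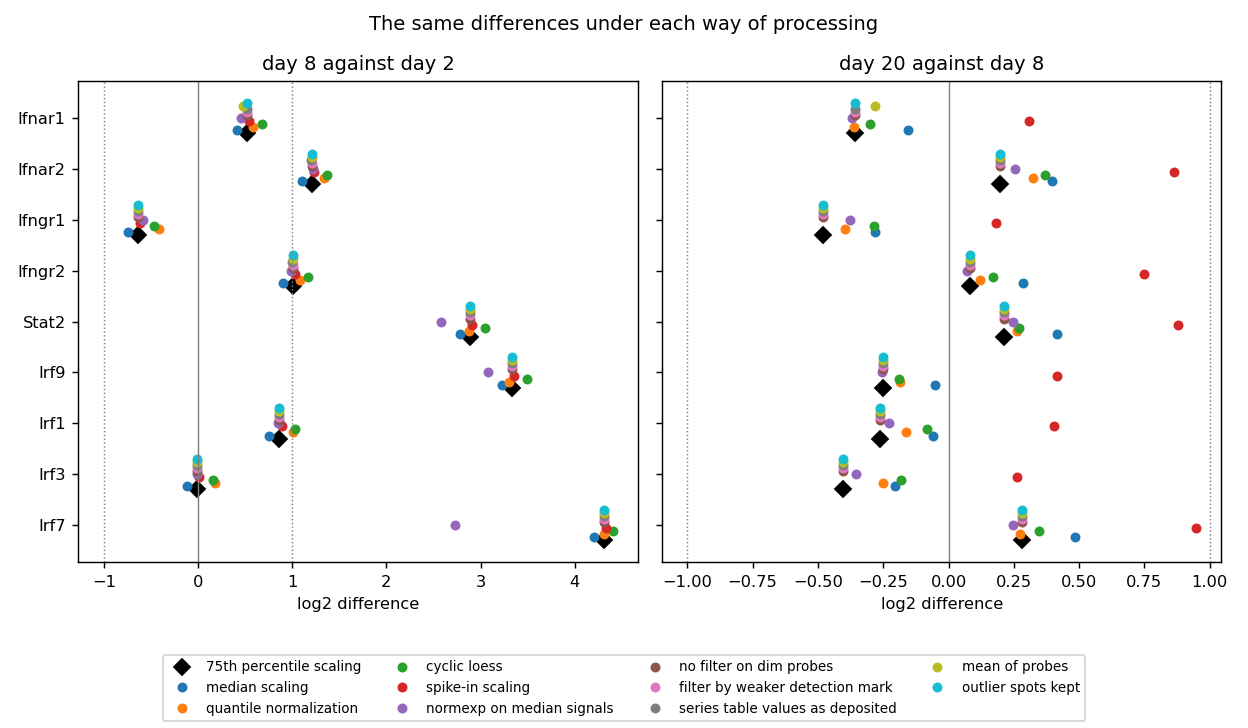
Log2 difference of each of the 9 genes (rows) in day 8 against day 2 and day 20 against day 8 (the horizontal axes differ), with a black diamond for the 75th percentile scaling used in the text and a dot for each of 10 other ways of processing. Stat2, Irf9 and Irf7 stay above 2-fold in day 8 against day 2 under each, while 5 genes cross 0 in day 20 against day 8 under spike-in scaling.

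Genes with the most similar course over the 3 arrays were looked up among the 11810 genes measured on all of them, by the Euclidean distance between levels centred on their own mean. Nearest to Irf9 were Tmem140 (distance 0.01), Rras (0.06) and Zpbp2 (0.09), and Stat2 ranked 62nd (0.37). Nearest to Stat2 were Nacc2 (0.03), Ttc12 (0.07) and Dglucy (0.08), and nearest to Irf7 were Grtp1 (0.06), Gstm4 (0.09) and Camsap3 (0.10). The receptor chains had many genes as close: 66 lay within 0.1 of Ifnar2, led by Rftn2, Ly96 and Slc22a21, 90 of Ifngr2, led by Stx6, Galnt15 and Plcb3, and 119 of Ifngr1, led by Sec61g, Tfb2m and 2610028H24Rik. With 3 arrays such likeness is only a description.

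Interferon genes were dim on each day. Of 16 type I, II and III interferon genes named on the array, 8, 7 and 6 were well above background on days 2, 8 and 20, and their summed intensity, divided by each array's 75th percentile, was 0.394, 0.389 and 0.293. They include Ifnl3, a type III interferon, which binds another receptor. None of the 7 measured on days 2 and 8 passed 2-fold, the largest difference being that of Ifna1 (-0.62). Ifnb1 and Ifng, the genes of interferon beta and interferon gamma, were not well above background on any day. Because interferon alpha genes share most of their sequence, a probe named for 1 of them may read others.

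The 4 Jak kinases were all measured, and of them Tyk2, Jak1 and Jak2 are those attached to the interferon receptors. Jak3 (2.53) and Tyk2 (1.1) were at least 2-fold higher on day 8 than on day 2, where 13.8% of all genes were. Jak1 (0.85) and Jak2 (0.61) were under 2-fold, as were the 4 on day 20 against day 8. On day 20 against day 2, Jak3 (1.87), Jak1 (1.40) and Jak2 (1.00, at the threshold) were at least 2-fold higher, where 15.5% of all genes were. Tyk2 (0.93) was under 2-fold there. Among other STAT genes, Stat6 (1.05) passed 2-fold on day 8 against day 2, and Stat5b (0.48), Stat5a (0.23) and Stat3 (-0.74) did not. Stat4 was not above background on any day. Among other genes of the IRF and IRF2-binding group, Irf2 (1.68), a repressor of Irf1 targets, passed 2-fold, and Irf2bpl (0.19), Irf2bp1 (0.02) and Irf2bp2 (-0.61) did not. Irf4, Irf5 and Irf8 were not above background on any day at the probes used.

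Of 13 measured negative regulators, 5 were at least 2-fold higher on day 8 than on day 2 and 1 lower, with a median of 0.11. They include Isg15 (2.79), Cish (2.57), Usp18 (1.66), which blocks Ifnar2, and Socs1 (1.43), which blocks Jak kinases, against Socs2 (-1.21), the lower one. Socs2 and Socs3 (1.22), the fifth, were picked after their values were seen. Of 20 sensors and adaptors upstream of Irf3 and Irf7, 6 were higher and 1 lower (median 0.67), with Zbp1 (4.99), Ifih1 (3.96), Dhx58 (3.88) and Ddx58 (3.06) at the top. Tlr3, picked after its value was seen, was at least 3.96-fold higher, its day 2 spot not being well above background. Cgas, the sensor of cytosolic DNA, was at -3.04 and was also picked after its value was seen, and its adaptor gene Sting1 was at 1.16 on day 20 against day 8.

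Downstream, 14 of 17 measured ISGF3 targets were at least 2-fold higher on day 8 than on day 2 and 0 lower (median 2.66), and another 8 were higher by 2-fold or more as bounds, their day 2 spots not being well above background. Among the 17 measured on both days, Rtp4 (6.06), Parp14 (5.86), Oas1a (5.37) and Ifit1 (5.35) had the largest differences. The largest bounds, picked after their values were seen, were higher still, at least 7.97 for Ifit3, 7.05 for Xaf1 and 7.02 for Ifit3b on the log2 scale. Of 21 measured targets of interferon gamma and Irf1, 16 were higher and 0 lower (median 1.94), with another 4 as bounds, led by Gbp3 (7.55), Gbp2 (6.96), Irgm2 (6.56) and Igtp (6.50). For all genes the shares on day 8 against day 2 were 13.8% higher and 12.9% lower. On day 20 against day 8 they were 3.58% and 1.74%, and none of the 9 receptor and factor genes passed, which is near those shares. In that comparison 6 of 25 ISGF3 targets and 7 of 28 targets of interferon gamma and Irf1 were at least 2-fold higher, and 0 were lower. Those with the largest differences were Oas2 (2.73) and Rsad2 (1.82), and Psmb8 (2.13) and Psmb9 (2.08). The lists of targets were drawn up with earlier results of these arrays known and are no independent evidence of a direction, and a few genes, such as Isg15 and Socs1, stand in more than 1 list.

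**Figure D4:**
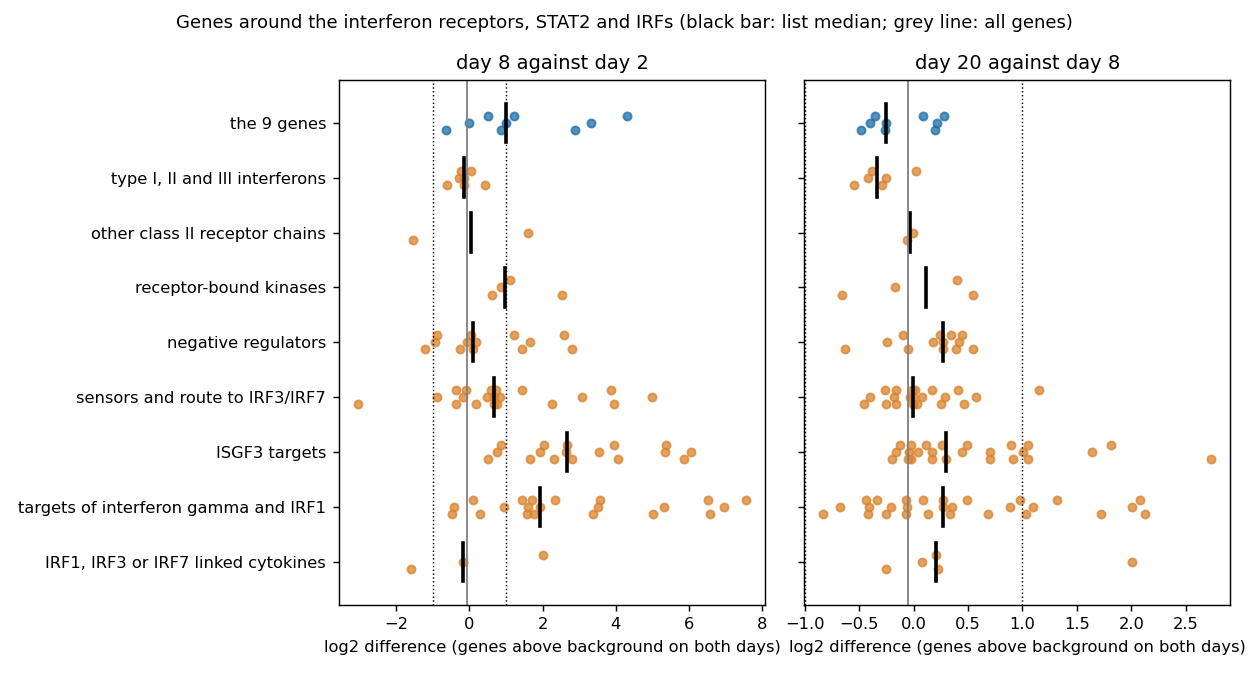
Log2 differences of genes above background on both days (dots) for the 9 genes and for lists of ligands, kinases, regulators, sensors and targets around them (rows), in day 8 against day 2 and day 20 against day 8 (the horizontal axes differ); black bars are list medians, the grey line the median of all genes, dotted lines 2-fold. The ISGF3 targets centre on 2.66 and the targets of interferon gamma and Irf1 on 1.94 in day 8 against day 2, beside 1.00 for the 9 genes.

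Markers of blood cells, which would bring their own interferon signalling genes, were looked at beside these results. Of 9 macrophage or monocyte markers, 4, 3 and 3 were well above background on days 2, 8 and 20, with summed intensities of 9.06, 11.5 and 6.24 times each array's 75th percentile. Most of the day 2 sum was the Itgam probe, with an intensity of 5486 of 5997. Sums of this kind add unlike probes and give no amount of a cell type. Ptprc, Adgre1, Lyz2, Mrc1 and Cx3cr1 were not above background on any day, while Csf1r and Itgam were above it on all 3, and Cd14 was 2.96 higher on day 8 than on day 2 on the log2 scale. Of 8 T or NK cell markers, 4, 4 and 3 were above background, with sums on the same scale of 2.05, 1.82 and 1.52. Cd4, Cd3e and Nkg7 were above background on all 3 days, and Cd3d, Cd8a, Klrb1c and Gzmb on none. Of 5 plasmacytoid dendritic cell markers, 3 were above background on each day (sums of 43.1, 53.0 and 50.9) and were Siglech, Tcf4 and Bst2, itself an interferon target with a difference of 2.66 on day 8 against day 2. Most of the day 2 sum was the Siglech probe, with an intensity of 26395.6 of 28542.5. The part of blood cells in the differences was not tested.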

How the data were processed

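Per the submitters' processing notes, spots were quantified in Agilent Feature Extraction 10.7.1.1. The deposited processed intensity is background-corrected and not scaled between arrays, per the file headers, and other deposited columns mark, as yes or no values of another kind, spots well above background or outlying. The authors' deposited log2 table, set against the arrays, was the log2 processed intensity shifted by 1 constant per array (-9.37, -9.31 and -9.86 for days 2, 8 and 20, medians -4.80, -4.69 and -4.89), within 0.01 for 99.8% or more of probes. The arrays share 1 slide and 1 scan date. The array design names an earlier mouse build than GRCm38.p6, so only promoter coordinates are given.

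Outlier and control spots were left out, and no spot was saturated. Of 39429 probes, 26581 were named by accession. A gene took its brightest probe, and a difference needed a spot well above background on both days. The technical SD is the median over the 41 nearest of 238 or 239 repeatedly printed probes. The analysis used Python 3.11.15, and limma 3.58.1 in R 4.3.3 for the alternative scalings, and was checked on simulated data. A bound is the bright level minus the higher of the dim level and the lowest level well above background on the dim array. The members, lists, motifs and naming rule (all members, the largest differences of each list and the 3 nearest genes) were chosen with earlier results of these data known, and differences between partner genes were added after their values were seen. Some genes of the STAT and IRF lists are not reported here.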

Additional observations from a re-analysis of the deposited data

How the results depend on the processing

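The 6 counts of genes past 2-fold were recomputed under 10 alternatives, and 56 of the 60 values lay within 1.5 times the reported count. The exceptions concern the single gene at least 2-fold lower on day 20 than on day 2, Ifngr1: the count was 0 with quantile normalization, 0 with cyclic loess, 0 with spike-in scaling and 0 with normexp, where Ifngr1 was at -0.81, -0.75, -0.43 and -0.96. No difference past 2-fold changed sign, and 20 of the 27 differences kept their sign under all 10 alternatives. Several alternatives were bound to repeat the reported values of the receptor and factor genes, so their agreement adds no support. These were no filter, the weaker detection mark and outlier spots kept, since each probe used was above background without outlier spots. The deposited values differ almost only by a constant per array, and averaging probes altered only Ifnar1. For all genes, the share of those past 2-fold on day 20 against day 8 that were higher was 67.3%, but 83.9% with median scaling, 82.6% with cyclic loess, 99.0% with spike-in scaling (2091 higher and 21 lower, against 441 and 214), 34.5% without a filter on dim probes (694 and 1315) and 40.5% with the weaker detection mark (582 and 854). On day 20 against day 2 it was 47.7%, but 64.9% (cyclic loess) and 84.4% (spike-in scaling, 3807 higher and 703 lower, against 1841 and 2017), and normexp gave 205 and 104 on day 20 against day 8. The planned normexp on mean signals was not run, since the files used hold median signals, and this form was chosen after seeing the data. No paired analysis was possible because each day has 1 array. Signal over background limits Irf7 on day 2 most, at a background-corrected intensity of 31.8 where the negative controls had a median of 2.88. The median local background of 19 is a raw value and not on that scale.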

Other observations

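Ifnlr1, the specific chain of the receptor for type III interferons, had no signal well above background at the probe used on any day (levels of -7.87, -7.92 and -8.06 on days 2, 8 and 20), although Il10rb, the shared chain, was. Il20rb, a chain of the receptors for interleukin-20 and its relatives, was at -1.53 on day 8 against day 2 and at -0.06 on day 20 against day 8, and the rest of this list of receptor chains, Il10ra, Il22ra1 and Il20ra were not above background on any day.

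Of 10 cytokine genes linked to Irf1, Irf3 or Irf7, 3 were measured on both days 8 and 2. Ccl5, a chemokine that Irf3 and Irf7 can turn on, was at 2.02, Il27 at -0.16 and Il15ra at -1.59. Il15, picked after its value was seen, was at least 11.6-fold higher on day 8, its day 2 spot not being above background. Tnfsf10 and Tnfsf13b, also picked after their values were seen, were at least 2.04-fold and 2.07-fold lower on day 8 than on day 2, their day 8 spots not being above background. Cxcl10, an interferon-induced chemokine, was at least 2.96-fold higher on day 8 than on day 2 and 2.01 higher on the log2 scale on day 20 than on day 8.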
